A study of Mus musculus with 12 samples.

Results

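Aminoacyl-tRNA synthetases join each amino acid to its own tRNA, the step that makes the charged tRNAs used by ribosomes. Most amino acids have separate nuclear genes for a cytoplasmic enzyme and for a mitochondrial enzyme, and the symbols of the mitochondrial enzymes end in 2. Gars and Kars each encode both forms, Eprs joins the glutamyl and prolyl activities in a single protein, and several cytoplasmic enzymes sit in a multisynthetase complex held together by the scaffold proteins Aimp1, Aimp2 and Eef1e1. The mouse oocyte stores mRNA during growth, falls silent in transcription when fully grown, and degrades or translates the stored mRNA during meiotic maturation.

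The members were 36 genes of the 23230 rows of the expression table, chosen by name and not by value, 20 of them cytoplasmic and 16 mitochondrial. Oocytes of wild-type (WT) and Zar1/2-null females were compared at 3 stages, giving 6 groups with 2 libraries each, made from 10 oocytes per library. The animals were a C57BL6/ICR hybrid strain, and per the study's methods the null females carried germline CRISPR/Cas9 null alleles of both Zar1 and Zar2, which encode oocyte RNA-binding proteins. Growing oocytes came from females of 13.5 days per the labels (the study's methods give a slightly younger age), fully grown germinal vesicle (GV) oocytes from females of 21 days 44 h after the gonadotropin PMSG, and ovulated metaphase II (MII) oocytes were taken 16 h after hCG, which per the study's methods followed PMSG in females of about the age of the GV donors. The labels do not say which females contributed to a library, so the tests measure the spread between these libraries. For null oocytes the label MII gives the time of collection, since the study describes ovulated null oocytes as halted in the first meiotic division. Null and WT oocytes at that time were thus at unlike points of meiosis, and genotype and meiotic stage cannot be told apart in any difference between them.

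Values were FPKM (fragments per kilobase of transcript, relative to all mapped fragments) that the authors multiplied by a library factor from the ERCC spike-in RNA, so that they follow RNA per oocyte. The factors ran from 0.225 and 0.228 in the WT MII libraries to 1 in the WT growing libraries, and from 0.252 to 0.862 in the null libraries. A direction can therefore rest on this factor, and each call below was also tested without it and with libraries scaled to equal medians. The libraries were primed on poly(A) tails, so loss of an mRNA and shortening of its tail cannot be told apart. All 10 oocyte marker genes were present in the table with summed values of at least 1228 FPKM in every library, whereas the 14 granulosa and cumulus markers summed to between 5.14 and 33.4 FPKM and the 5 immune markers to at most 3.19. The 5 epithelial markers summed to between 91.1 and 108 FPKM in the null growing oocytes and to between 32.0 and 33.6 in the WT growing oocytes, and their part in the genotype differences at that stage was not tested. Zar1l, the row of Zar2, stood at 639 and 644 FPKM in WT growing oocytes and at 17.5 and 13.2 in null growing oocytes. Zar1 was read at 603 and 725 FPKM against 407 and 460, and its level does not check the label because the study describes that allele as a short deletion near the start of translation, which a value for the whole gene need not show.

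The 2 classes differed in level. In WT GV oocytes 13 of the 20 cytoplasmic genes and 3 of the 16 mitochondrial genes (Lars2, Fars2 and Rars2) reached a mean of 10 FPKM, and 2 cytoplasmic and 6 mitochondrial genes stayed below 1 FPKM. The median over genes of the group mean was 29.2, 21.0 and 3.36 FPKM for the cytoplasmic class in WT growing, GV and MII oocytes, and 3.07, 1.98 and 0.110 FPKM for the mitochondrial class. Of the 36 genes 31 (18 cytoplasmic and 13 mitochondrial) had at least 1 FPKM in at least 1 library and were tested. Iars2, Nars2 and Vars2 reached 1 FPKM only in growing libraries (Nars2 in 1 library), so they were tested because they were high there, and their decrease after growth carries no support. FPKM is a value per length, so these levels are set side by side between genes, but repeated sequence and overlapping genes, described below for some members, can still bear on them.

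**Figure D1:**
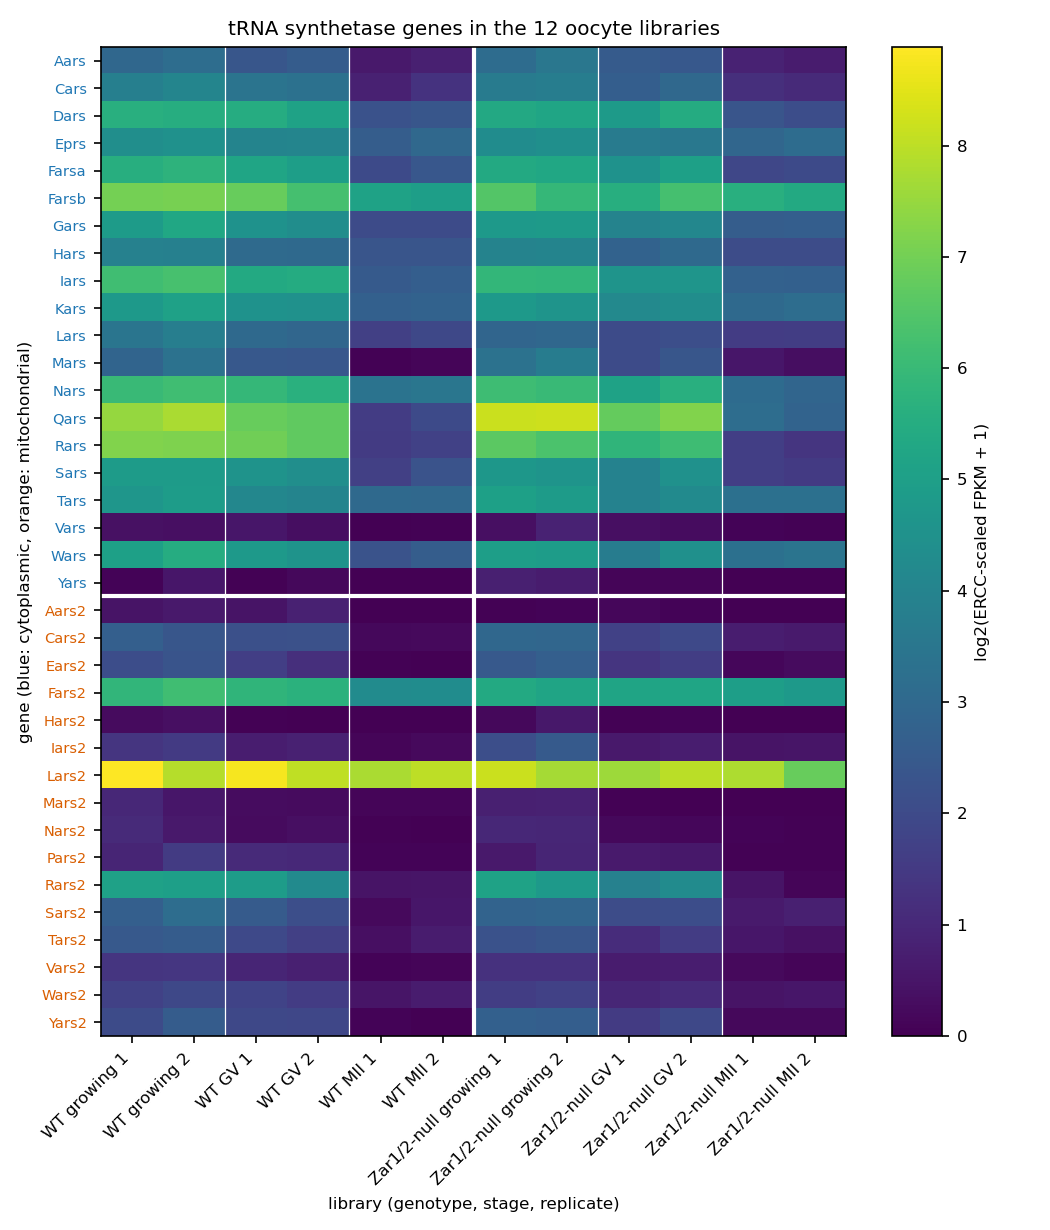
Level of each of the 36 synthetase genes (rows) in each of the 12 libraries (columns), shown as log2(ERCC-scaled FPKM + 1) by colour, with cytoplasmic genes above the white line and mitochondrial genes below it. Lars2 was the brightest mitochondrial row in every library, and Rars, Qars and Rars2 were bright in growing and GV oocytes and dark in MII oocytes of both genotypes.

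The highest cytoplasmic genes in WT GV oocytes were Rars, Qars and Farsb. Rars, the arginyl-tRNA synthetase, measured 145 and 143 FPKM in WT growing, 125 and 103 in WT GV and 1.90 and 2.30 in WT MII libraries, against 98.6 and 82.5, 55.9 and 68.4, and 2.099 and 1.62 in the null libraries of the same stages. Qars, the glutaminyl-tRNA synthetase, measured 179 and 218, 112 and 105, and 1.99 and 2.96 FPKM in the WT growing, GV and MII libraries, and 291 and 291, 109 and 146, and 7.97 and 6.10 in the null libraries. Both were among the most abundant members before maturation and lay between 1.62 and 7.97 FPKM after it. The lowest tested cytoplasmic gene in WT GV oocytes was Mars, the methionyl-tRNA synthetase, at 6.28 and 9.18, 4.45 and 4.37, and 0.0480 and 0.0823 FPKM in the WT growing, GV and MII libraries and 9.17 and 12.3, 3.05 and 4.22, and 0.437 and 0.242 in the null libraries. Mars overlaps Ddit3 in the mm9 annotation, and the counting is not stated to use strand, so reads from the shared stretch cannot be told apart. The same holds for Iars2 with Rab3gap2, Ears2 with Ubfd1 and Lars with a pseudogene of Rps19.

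Vars (valyl) and Yars (tyrosyl) did not reach 1 FPKM in any library and were not tested. Vars measured 0.310 and 0.275, 0.440 and 0.262, and 0.0109 and 0.0388 FPKM in the WT growing, GV and MII libraries, and 0.302 and 0.794, 0.277 and 0.224, and 0.0506 and 0.0275 in the null libraries. Yars measured 0.0667 and 0.441, 0.0276 and 0.153, and 0.00820 and 0 FPKM in WT, and 0.709 and 0.609, 0.0868 and 0.0794, and 0.00953 and 0 in the null libraries. The mitochondrial partners of these enzymes, Vars2 and Yars2, had higher means in WT GV oocytes, 0.799 ± 0.130 (SD, n = 2) and 2.75 ± 0.112 FPKM (SD, n = 2). Without a count table the depth behind such low values is unknown.

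Lars2, the mitochondrial leucyl-tRNA synthetase, was the highest of the 36 genes in every library but the 2 null growing ones, where Qars was higher, and its replicates lay far apart. It measured 472 and 237 FPKM in WT growing, 432 and 259 in WT GV and 216 and 256 in WT MII libraries, and 286 and 207, 189.7 and 247, and 221 and 112 in the null libraries. WT growing and null growing ranges overlapped, as did WT and null MII. Both null GV libraries lay below both WT GV libraries, as for 63.6% of all tested genes. With the ERCC factor Lars2 passed no test in any of the 7 comparisons or 2 genotype differences, with a log2 standard error of 0.385 in each comparison of groups. From GV to MII it was called higher in WT without the factor, and in both genotypes with equal medians. A stretch of 398 bases of its longest coding transcript, from base 3009 to base 3406 in the 3′ UTR, matched 11 other places on 9 chromosomes of mm9 at 90.3% to 98.8% identity. This covered 10.3% of the transcript, and how the authors' rule of unique reads treated it was not tested.

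Fars2, the mitochondrial phenylalanyl-tRNA synthetase, stood next at 56.3 and 70.1, 54.7 and 50.7, and 18.6 and 19.0 FPKM in the WT growing, GV and MII libraries and 41.5 and 35.7, 35.4 and 36.4, and 30.8 and 26.5 in the null libraries. Rars2, the mitochondrial arginyl-tRNA synthetase, measured 33.2 and 31.0, 29.3 and 17.8, and 0.382 and 0.427 in WT and 33.4 and 26.0, 14.0 and 18.3, and 0.382 and 0.0997 in the null libraries. Fars2 stayed above 18 FPKM through maturation, and Rars2 fell below 1 FPKM in every MII library. Aars2, Hars2 and Mars2 never reached 1 FPKM and were not tested, with Aars2 between 0 and 0.763 FPKM over the 12 libraries.

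Hars2 was the lowest mitochondrial gene in WT GV oocytes and measured 0.187 and 0.283, 0.0258 and 0, and 0.0153 and 0 FPKM in the WT growing, GV and MII libraries, and 0.133 and 0.490, 0.0324 and 0.0556, and 0 and 0.00644 in the null libraries. Mars2 measured 0.997 and 0.440, 0.220 and 0.197, and 0.0899 and 0.0970 in WT and 0.707 and 0.753, 0.0346 and 0.0198, and 0.0190 and 0.00688 in the null libraries. Nars2, the mitochondrial asparaginyl enzyme, measured 1.08 and 0.539, 0.187 and 0.297, and 0.0308 and 0.00976 in WT and 0.982 and 0.947, 0.131 and 0.104, and 0.0645 and 0.0259 in the null libraries. These genes were all highest in growing oocytes. Hars2 shares part of its locus with the cytoplasmic Hars, which runs in the opposite direction, so reads from the shared stretch cannot be assigned.

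Several synthetase promoters hold the letters of an amino acid response element, the site where ATF4 with a C/EBP partner is known to act when uncharged tRNA activates the kinase GCN2. RefSeq promoters (250 bases before to 50 after the start, GRCm38.p6) were matched for 13 cytoplasmic and 14 mitochondrial genes. None was matched, and so none searched, for Cars, Hars, Lars, Nars, Rars, Vars, Wars, Hars2 and Pars2. TGATGNAA on either strand was found in 5 of the 13 cytoplasmic promoters (Aars, Gars, Iars, Tars and Yars) and in 0 of the 14 mitochondrial promoters, and in 4.51% of the promoters of 27025 genes. The 44 bases around each match are shown because the letters were found in the cytoplasmic class alone, with the matched letters in capitals and all written on the strand of the gene.
Yars, chr4:129189888-129189931, plus strand: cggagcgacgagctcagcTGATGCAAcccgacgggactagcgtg
Gars, chr6:55037953-55037996, plus strand: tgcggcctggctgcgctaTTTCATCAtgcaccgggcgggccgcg
Aars, chr8:111033712-111033755, plus strand: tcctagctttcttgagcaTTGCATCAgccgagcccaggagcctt
Aars, chr8:111033833-111033876, plus strand: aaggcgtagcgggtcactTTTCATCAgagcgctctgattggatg
Iars, chr13:49682119-49682162, plus strand: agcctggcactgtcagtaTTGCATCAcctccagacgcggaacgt
Tars, chr15:11399648-11399691, minus strand: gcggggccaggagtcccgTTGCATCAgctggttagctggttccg

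This was 1 of 7 patterns searched after the expression values had been seen, several of which overlap one another. TGATGCAA, a subset of the first, was found in 4 cytoplasmic and 0 mitochondrial promoters and in 1.03% of genes, and ATTGCAT in 2, 0 and 2.35%. CACGTG, the E-box letters, was found in 4, 1 and 8.09%. CCGGAAG, the ETS letters, was found in 5, 4 and 9.93%, and in 5, 6 and 12.8% when TTTCCGG was also allowed, while the letters of the ZNF143 site were found in 0, 0 and 0.311%. A match describes letters in a window and was not tested as a site. The 5 genes with TGATGNAA did not share a level, since Iars had a mean of 42.2 ± 1.16 FPKM (SD, n = 2) in WT GV oocytes and Yars of 0.0905 ± 0.0890 (SD, n = 2).

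The growth of the oocyte was followed first by comparing GV with growing oocytes. In WT, 10 of 18 tested cytoplasmic and 6 of 13 tested mitochondrial genes were lower in GV oocytes (28.7% of all 11502 tested genes) and none was higher (2.77% of all genes), by limma with Benjamini-Hochberg adjustment and a threshold of 0.05. No member was higher at an unadjusted p under 0.05 either. The median log2 change was −0.58 for the cytoplasmic, −0.47 for the mitochondrial and −0.29 for all tested genes. Without the ERCC factor, or with equal medians, no member was called in either direction, so the WT calls rest on the factor. The cytoplasmic median lay below that of all genes by a log2 difference of −0.29 with the factor, −0.24 without it and −0.25 with equal medians, with 1, 3 and 3 of the 18 genes above the median of all genes. The scale of log2(FPKM + 1) understates the change of low genes, and here and below no comparison with genes of like level was made. Without Iars2, Nars2 and Vars2, 3 of 10 mitochondrial genes were called lower.

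Qars, Hars and Iars had the largest decreases of the called genes. Hars, the histidyl-tRNA synthetase, measured 14.1 and 13.7 FPKM in WT growing, 7.31 and 7.25 in WT GV and 4.08 and 4.07 in WT MII libraries, and 14.9 and 14.9, 5.95 and 7.12, and 3.18 and 3.14 in the null libraries. Iars, the isoleucyl-tRNA synthetase, measured 71.1 and 77.2, 41.4 and 43.0, and 4.67 and 5.33 in WT and 58.5 and 55.9, 23.3 and 23.7, and 5.84 and 5.63 in the null libraries. Growing and GV libraries did not overlap for these genes in either genotype, as for 59.5% of all tested genes lower in WT GV and 68.9% lower in null GV oocytes. The log2 change in WT was −0.86 ± 0.20 (SE) for Qars, −0.85 ± 0.13 for Hars and −0.80 ± 0.13 for Iars, with limma adjusted p-values of 0.0104, 0.00159 and 0.00234. Of these, the call for Qars depended on single libraries, whereas Hars and Iars stayed called whichever library was left out. The called count fell to 4 without WT growing replicate 2 and to 5 without WT GV replicate 2. Parts of the Iars transcript (61.3% of it in all) are covered by 3 matches elsewhere in mm9. The longest, of 1678 bases, lies on chromosome 1 with 95.7% identity, and how the rule of unique reads treated these matches was not tested.

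In null oocytes 15 of 18 cytoplasmic and 10 of 13 mitochondrial genes were lower at the GV stage (55.9% of all genes) and none was higher by limma, at an adjusted or an unadjusted p under 0.05 (4.76% of all genes adjusted). The median changes were −0.81 and −0.81 against −0.50 for all genes. Hars, Iars, Mars, Qars, Cars2 and Ears2 were lower under all 3 scalings, as were Iars2 and Nars2, which were tested through growing libraries alone. Without those and Vars2, 7 of 10 mitochondrial genes were called lower in null oocytes. In the other direction Fars2 was called higher without the ERCC factor and Fars2 and Dars with equal medians. Iars2, the mitochondrial isoleucyl enzyme, measured 3.34 and 4.72 FPKM in null growing, 0.514 and 0.651 in null GV and 0.397 and 0.409 in null MII libraries, and 1.57 and 1.88, 0.641 and 0.755, and 0.0919 and 0.161 in the WT libraries. Its log2 change was −1.66 ± 0.14 (SE) in null and −0.68 ± 0.14 in WT oocytes. Mars fell by 1.34 ± 0.20 and Iars by 1.25 ± 0.13 on the log2 scale in null oocytes, with limma adjusted p-values of 0.000208 and 2.53e-05.

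The change itself differed between genotypes for Iars2 and Cars2 of the mitochondrial class, both with a larger decrease in null oocytes (11.3% of all genes in that direction), and for no member in the other direction (2.58%) or of the cytoplasmic class. At an unadjusted p under 0.05, limma found 2 cytoplasmic and 4 mitochondrial genes in that direction and none in the other. Iars2 was tested only because it was high in growing libraries, so its difference in this change carries no support. The difference by limma was −0.97 ± 0.20 (SE) for Iars2 (adjusted p = 0.0132) and −0.74 ± 0.20 for Cars2 (adjusted p = 0.0320). Neither passed without the ERCC factor (0.0621 and 0.135) or with equal medians (0.0740 and 0.196), and the Cars2 call was lost when any of 10 of the 12 libraries was left out.

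During meiotic maturation nearly all tested members of both classes fell, as did most genes of the table. From GV to MII in WT, 18 of 18 cytoplasmic and 11 of 13 mitochondrial genes were lower (93.4% of all genes) and none was higher at an adjusted or unadjusted p under 0.05 by limma (0.104% of all genes adjusted). The median log2 change was −2.33 for the cytoplasmic, −1.29 for the mitochondrial and −1.28 for all tested genes, and without the ERCC factor it was −0.94, −0.59 and −0.43. The 10 cytoplasmic genes Aars, Cars, Dars, Farsa, Gars, Iars, Mars, Qars, Rars and Sars and the 7 mitochondrial genes Cars2, Ears2, Pars2, Rars2, Sars2, Vars2 and Yars2 were lower under all 3 scalings. Hars, Tars and Lars2 were called higher without the ERCC factor, and Eprs, Farsb, Lars and Fars2 joined them with equal medians. The log2(FPKM + 1) scale understates the change of low genes, which bears most on the mitochondrial class, since 10 of its 11 called genes and 2 of the 18 cytoplasmic genes were under 1 FPKM in both WT MII libraries. These genes reached 1 FPKM only in growing or GV libraries, so they were tested because they were high there. Their decrease is not independent of the filter, and their count carries no support. This covers the 7 mitochondrial genes lower under all 3 scalings. Fars2 was the only called mitochondrial gene that reached 1 FPKM at MII.

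Rars, Qars and Rars2 were the 3 members that fell more than 10-fold, in WT (15.7% of all genes) and in null oocytes (6.66%) alike, computed from group means with a floor of 1 FPKM. With this floor a member needed a GV mean above 10 FPKM to pass, which in WT held for 13 cytoplasmic and 3 mitochondrial genes. Below that level Mars went from a mean of 4.41 to 0.0652 FPKM in WT, and Yars2 from 2.75 to 0.0317. The log2 change was −5.21 ± 0.17 (SE) for Rars, −4.99 ± 0.20 for Qars and −4.09 ± 0.23 for Rars2 in WT, and −4.46 ± 0.17, −3.99 ± 0.20 and −3.79 ± 0.23 in null oocytes. The largest adjusted p of the 6 tests was 6.62e-08. The cytoplasmic and the mitochondrial enzyme for arginine were thus both in this group, though the limit of the filter given above holds for Rars2.

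In null oocytes 17 of 18 cytoplasmic and 9 of 13 mitochondrial genes were lower at MII (68.7% of all genes), and none was higher at an adjusted or unadjusted p under 0.05 by limma (0.209% of all genes adjusted). The median changes were −1.72, −0.56 and −0.72 for the cytoplasmic, mitochondrial and all tested genes. In all, 10 cytoplasmic genes were lower under all 3 scalings, with Nars in place of Gars in the list above, and so were the 7 mitochondrial genes. All 9 called mitochondrial genes and 2 of the called cytoplasmic genes were under 1 FPKM in both MII libraries, so the same limit of the filter holds for them. Farsb and Fars2 were called higher without the ERCC factor, and Eprs, Farsb, Lars, Tars, Fars2 and Lars2 with equal medians.

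**Figure D2:**
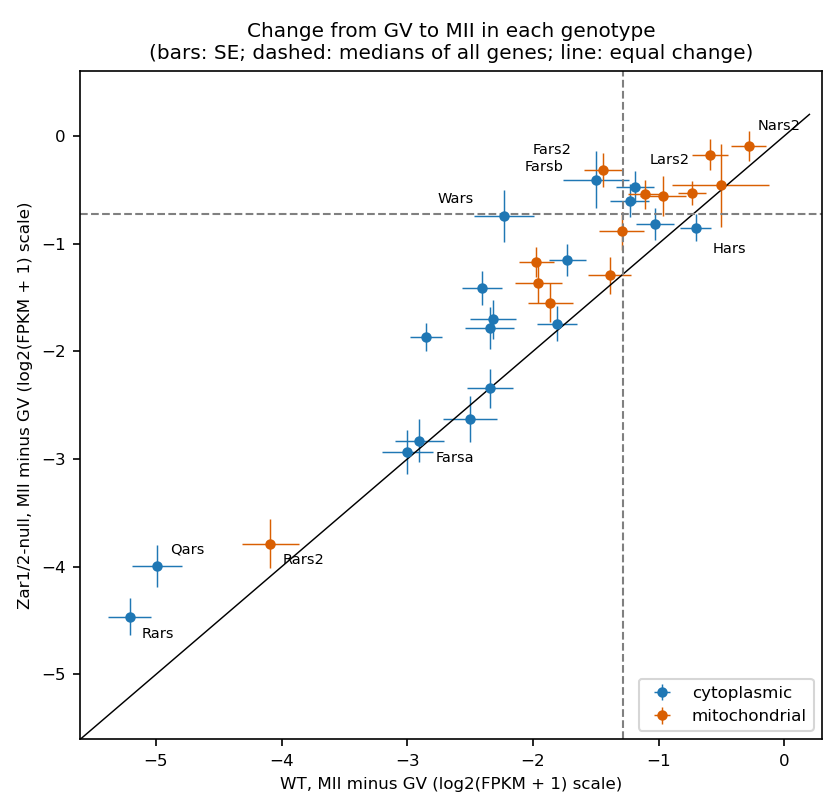
Log2 change from GV to MII in WT (horizontal axis) and in Zar1/2-null oocytes (vertical axis) for the 31 tested members on the log2(FPKM + 1) scale, with standard errors, the medians of all tested genes (dashed) and the line of equal change. Rars, Qars and Rars2 lay below −3.7 on both axes, and Wars, Fars2 and Farsb lay well above the line.

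Enzymes of the multisynthetase complex fell by unequal amounts. Over the 8 complex genes Eprs, Iars, Lars, Mars, Qars, Rars, Kars and Dars, grouped after the values were seen, the log2 change from GV to MII ran from −5.21 to −1.19 in WT, with a median of −2.60, and over the other 10 tested cytoplasmic genes from −2.90 to −0.71, with a median of −2.27. Lars, the leucyl-tRNA synthetase, measured 9.96 and 12.8, 7.26 and 6.58, and 2.19 and 2.80 FPKM in the WT growing, GV and MII libraries and 6.395 and 6.86, 3.06 and 3.38, and 1.98 and 2.097 in the null libraries. The ratio of Lars to Rars within a library, which no library factor can move, was 0.0610 ± 0.0038 (SD, n = 2) in WT GV and 1.18 ± 0.0445 in WT MII oocytes. The null values were 0.0521 ± 0.0038 and 1.12 ± 0.249. This was 1 of 5 gene pairs whose ratios were computed after the values were seen, and is given as a description.

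The phenylalanyl-tRNA synthetase genes showed a similar split. The cytoplasmic enzyme is built from an alpha subunit (Farsa) and a beta subunit (Farsb), whereas the mitochondrial enzyme is the single chain Fars2. Farsa measured 46.0 and 52.6, 36.2 and 30.5, and 2.98 and 4.26 FPKM in the WT growing, GV and MII libraries and 41.5 and 38.5, 22.0 and 31.8, and 2.74 and 2.99 in the null libraries. Farsb measured 128 and 132, 113 and 76.2, and 33.5 and 30.9 in WT and 90.1 and 58.8, 46.2 and 75.2, and 47.3 and 41.3 in the null libraries. The ratio of Farsb to Farsa, another of the 5 pairs, was 2.64 ± 0.199 (SD, n = 2), 2.81 ± 0.432 and 9.25 ± 2.84 in WT growing, GV and MII oocytes and 1.85 ± 0.453, 2.23 ± 0.190 and 15.5 ± 2.45 in null oocytes. The mRNA of the 2 subunits was less balanced in MII oocytes of both genotypes than in GV oocytes, with no overlap between the stages. Farsb overlaps Sgpp2 in mm9.

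**Figure D3:**
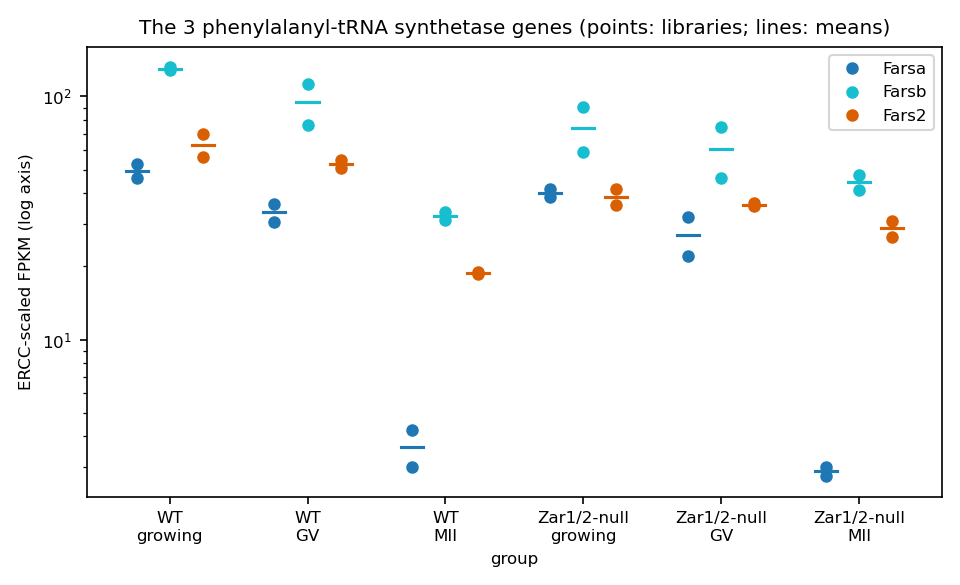
ERCC-scaled FPKM (log axis) of Farsa, Farsb and Fars2 in the 2 libraries of each group, with lines at the group means. Farsa dropped to between 2.74 and 4.26 FPKM in the 4 MII libraries, in which Farsb stayed at 30.9 or more and Fars2 at 18.6 or more.

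Maternal mRNAs with a cytoplasmic polyadenylation element (CPE, TTTTAT or TTTTAAT) near the AATAAA or ATTAAA hexamer can be polyadenylated during maturation, and the 3′ ends were searched for it after the values had been seen. The search covered genes whose longest coding transcript had a 3′ UTR of at least 100 bases and a hexamer near its end. Among these a CPE lay in the last 100 bases of 2 of 13 cytoplasmic genes (15.4%) and 0 of 11 mitochondrial genes, beside 20.7% of 7619 tested genes. Qars, Mars, Rars2 and Cars2, with 3′ UTRs of 95, 72, 97 and 93 bases, and Vars, with none annotated, were not searched. The 2 ends are shown because the genes differ in their change at maturation, with CPE and hexamer in capitals, in mm9 coordinates and on the strand of the gene.
Farsa, chr8:87393107-87393122, plus strand: ctgTTTTAATAAAgtg
Kars, chr8:114517355-114517384, minus strand: tctTTTTATtcctcgttaccaAATAAAtca
In Farsa the 2 elements share letters, while in Kars they lie 18 bases apart from start to start. Farsa fell by 2.90 ± 0.20 (SE) on the log2 scale from GV to MII in WT, and Kars, the lysyl-tRNA synthetase, fell by 1.73 ± 0.15. The Kars decrease reversed in sign with equal medians (0.22).

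The genotypes were compared at each stage next. In growing oocytes 4 of 18 cytoplasmic and 1 of 13 mitochondrial genes were lower in the null oocytes (24.4% of all tested genes), and 1 cytoplasmic and 2 mitochondrial genes were higher (10.6%). Qars, Cars2 and Iars2 were higher and Fars2 was lower under all 3 scalings, whereas Farsb, Iars, Lars and Rars were called lower only with the ERCC factor, and Ears2, Mars, Tars and Yars2 were called higher under either of the other scalings. Iars2, which overlaps Rab3gap2, rose by 0.87 ± 0.14 (SE) on the log2 scale (limma adjusted p = 0.000985) and was the only one of the 8 calls kept whichever library was left out. Qars was higher by 0.56 ± 0.20 (adjusted p = 0.0490) and Fars2 differed by −0.69 ± 0.16 (adjusted p = 0.00575).

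Cars2, the mitochondrial cysteinyl-tRNA synthetase, measured 5.46 and 4.25, 3.49 and 3.56, and 0.133 and 0.168 FPKM in the WT growing, GV and MII libraries and 6.91 and 6.57, 2.31 and 2.90, and 0.634 and 0.548 in the null libraries. The null libraries were above the WT libraries in growing and MII oocytes and below them in GV oocytes, and the 4 MII values were all under 1 FPKM. In growing oocytes its difference was 0.41 ± 0.14 (adjusted p = 0.0407). The log2 differences of Farsb, Lars, Rars and Iars were −0.82 ± 0.27, −0.69 ± 0.15, −0.67 ± 0.17 and −0.37 ± 0.13, with limma adjusted p-values of 0.0323, 0.00490, 0.0113 and 0.0475. Without WT growing replicate 2 no member was called lower, and the count was 3 without WT growing replicate 1 and 1 without null growing replicate 2. The count of higher members fell to 1 without either null growing library.

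In GV oocytes 4 cytoplasmic genes (Cars, Iars, Lars and Rars) and 2 mitochondrial genes (Fars2 and Wars2) were lower in the null oocytes (40.6% of all tested genes) and none was higher at an adjusted or unadjusted p under 0.05 by limma (2.83% adjusted). The medians of −0.35 and −0.33 lay beside −0.38 for all genes. Lars was lower by a log2 difference of −0.91 ± 0.15 (SE), Rars of −0.86 ± 0.17 and Iars of −0.82 ± 0.13, with limma adjusted p-values of 0.000867, 0.00235 and 0.000673. The null libraries lay wholly below the WT libraries for these genes, as for 63.6% of all tested genes. These 3 calls and that of Wars2 (−0.66 ± 0.14, adjusted p = 0.00290) held whichever library was left out. None of the 6 passed under all 3 scalings: Lars and Rars were still lower without the ERCC factor (−0.57 and −0.42), but with equal medians their adjusted p-values were 0.0536 and 0.122. With either of these scalings Qars and Tars were called higher. A small part of the Wars2 transcript (4.65% of it) gave 1734 matches elsewhere in mm9, the longest with 90.3% identity. How the rule of unique reads treated them was not tested. The Cars call was lost when any of 7 libraries was left out, at adjusted p-values from 0.0508 to 0.225, and that of Fars2 without WT GV replicate 1 (0.0876) or null GV replicate 1 (0.0563). Leaving out null GV replicate 2 raised the count of lower members to 12.

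In MII oocytes 5 members were higher in the null oocytes, and these were called under each of the 3 scalings. Qars, Wars and Gars of the cytoplasmic class and Cars2 and Fars2 of the mitochondrial class were higher (21.5% of all tested genes), and none was lower by limma (10.3%), with Hars and Nars below at an unadjusted p under 0.05. Without the ERCC factor Iars2 and Mars were also called higher, and with equal medians Iars2, Mars and Ears2 were. Farsa, Hars, Lars, Nars, Rars, Sars and Rars2 were called lower under either of these scalings. Wars, the tryptophanyl-tRNA synthetase, measured 32.3 and 44.4, 27.2 and 22.5, and 3.86 and 5.19 FPKM in the WT growing, GV and MII libraries and 30.6 and 28.8, 12.3 and 20.9, and 8.79 and 9.63 in the null libraries. Gars, the glycyl-tRNA synthetase, measured 28.2 and 38.6, 22.2 and 19.3, and 3.09 and 3.09 in WT and 27.3 and 27.9, 14.7 and 16.4, and 5.09 and 5.32 in the null libraries. For each of the 5 genes both null MII libraries lay above both WT MII libraries, as for 43.5% of all tested genes.

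The log2 difference in MII oocytes was 1.21 ± 0.20 (SE) for Qars, 0.90 ± 0.24 for Wars, 0.60 ± 0.16 for Gars, 0.58 ± 0.16 for Fars2 and 0.47 ± 0.14 for Cars2. The limma adjusted p-values were 0.000653, 0.0132, 0.0139, 0.0142 and 0.0240. Qars stayed called whichever library was left out, and the count of 5 fell to 1 without WT MII replicate 1 and to 2 without any of the other 3 MII libraries.

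**Figure D4:**
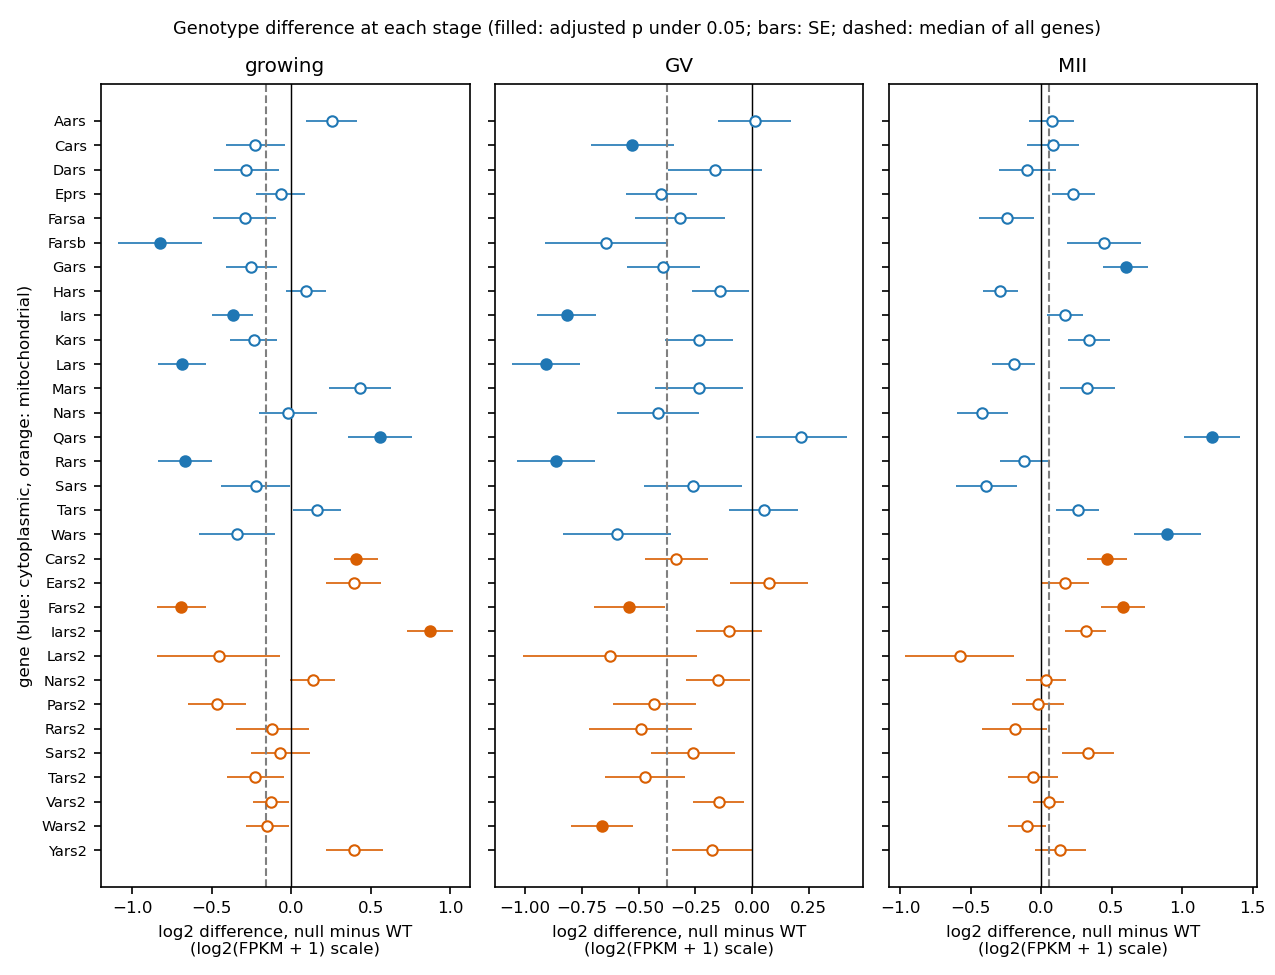
Log2 difference between Zar1/2-null and WT oocytes (null minus WT, log2(FPKM + 1) scale) for the 31 tested members at each stage, with standard errors, filled points for adjusted p under 0.05 and a dashed line at the median of all tested genes. The called points lay on both sides of 0 in growing oocytes, below 0 in GV oocytes and above 0 in MII oocytes.

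The change from GV to MII differed between genotypes for 8 cytoplasmic and 3 mitochondrial genes, each with a smaller decrease in null oocytes (33.9% of all tested genes), and for none in the other direction at an adjusted or unadjusted p under 0.05 by limma (0.643% adjusted). Wars differed by 1.49 ± 0.34 (SE), Fars2 by 1.12 ± 0.22 and Farsb by 1.09 ± 0.38 on the log2 scale, with limma adjusted p-values of 0.00633, 0.00289 and 0.0434. The median difference over all genes was 0.48, and the medians of the cytoplasmic and mitochondrial classes were 0.59 and 0.41. Without the ERCC factor or with equal medians only Cars2 was still called higher (0.94 and 0.98), while Hars and Nars were called lower, and with equal medians Sars too. The count of 11 fell to 5 without WT GV replicate 1, WT MII replicate 1, null GV replicate 1 or null MII replicate 1, and to 7 without null MII replicate 2. The GV and MII libraries enter this difference together, so it is not independent of the comparisons at those stages.

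The mitochondrial share of the summed FPKM of both classes compares the classes within a library. It was 39.9% and 27.4% in the WT growing, 43.9% and 37.1% in the WT GV and 71.8% and 73.3% in the WT MII libraries. In the null libraries it was 30.6% and 26.9%, 37.2% and 35.8%, and 67.3% and 54.9%. The MII libraries were above all others in both genotypes, and the WT and null ranges overlapped in growing oocytes and not in MII oocytes. Lars2 held between 63.4% and 92.2% of the mitochondrial sum, and without it the share was 11.9% and 12.1%, 13.4% and 13.0%, and 18.03% and 17.6% in WT and 11.0% and 10.8%, 12.8% and 11.1%, and 21.6% and 20.3% in the null libraries. Without Lars2 the order of the genotypes at MII turned. Fars2 held 89.3% of the rest of the mitochondrial sum in WT MII and 89.9% in null MII oocytes, on average. Without both genes the share was lower at MII, at 6.52% ± 0.269 (SD, n = 2), 6.42% ± 0.743 and 2.27% ± 0.430 in WT growing, GV and MII oocytes and 7.22% ± 0.0972, 5.85% ± 0.172 and 2.59% ± 0.0421 in null oocytes. The higher share at MII was thus carried by Lars2 and Fars2. The shares are a description and were not tested.

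**Figure D5:**
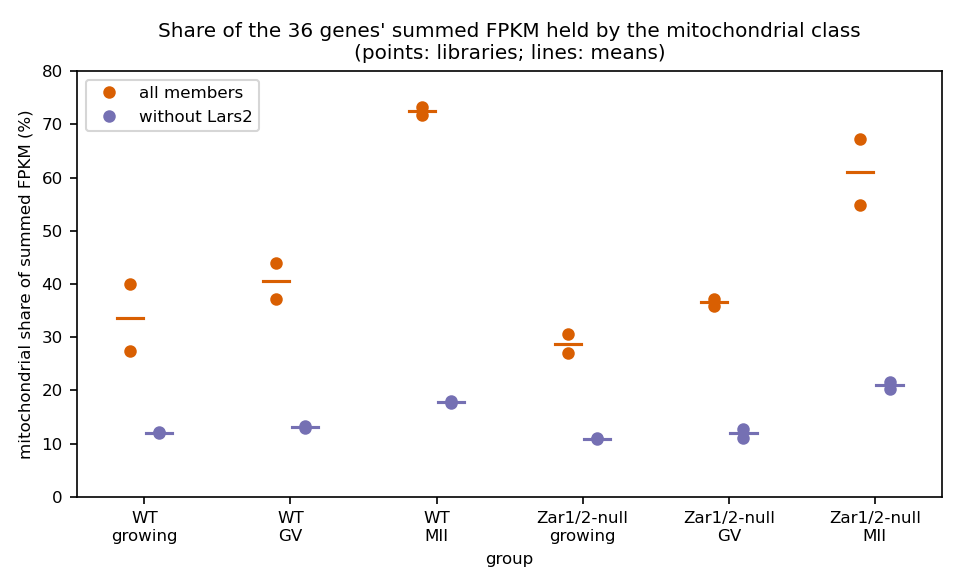
Mitochondrial share (percent) of the summed FPKM of the 36 genes in each library, with lines at group means, for all members and without Lars2. With all members the 4 MII libraries lay between 54.9% and 73.3%, and without Lars2 between 17.6% and 21.6%.

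Genes that work with the synthetases were counted from a list of 18 charging partners, among them the complex scaffolds, tRNA maturation and editing enzymes, the selenocysteine enzymes and Tarsl2. Of the 18, 2 were higher and 3 lower in null growing oocytes (10.6% and 24.4% of all tested genes), 0 and 7 in null GV oocytes (2.83% and 40.6%) and 2 and 3 in null MII oocytes (21.5% and 10.3%). Without the ERCC factor 5 were higher and 3 lower at MII (24.6% and 23.4%). Pstk, the kinase that acts on seryl-tRNA for selenocysteine, measured 0.379 and 0.506 FPKM in WT MII and 8.75 and 5.596 in null MII libraries. Trnt1, which adds the CCA end to tRNAs, measured 14.1 and 16.5 against 7.23 and 6.35, and Sepsecs, the next selenocysteine enzyme, 1.58 and 2.18 against 0.340 and 0.428. Pstk was higher by 2.48 ± 0.21 (SE) on the log2 scale, and Trnt1 and Sepsecs differed by −1.06 ± 0.19 and −1.05 ± 0.23, with limma adjusted p-values of 3.49e-06, 0.00110 and 0.00402.

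Of 18 genes of the GCN2 and ATF4 branch, which senses uncharged tRNA, 14 were tested, and 6 were higher and 1 was lower in null MII oocytes under each of the 3 scalings. Over all tested genes 21.5% were higher and 10.3% lower at MII with the ERCC factor, 24.6% and 23.4% without it and 25.8% and 24% with equal medians. With the ERCC factor 2 of the 14 were higher and 1 was lower in null growing oocytes (10.6% and 24.4% of all tested genes). In null GV oocytes 1 was higher and 5 were lower (2.83% and 40.6%). Without the factor the GV counts were 3 and 2, beside 827 and 1554 of all 11502 tested genes. Atf4, the transcription factor of the branch, measured 179 and 212 FPKM in WT growing, 145 and 122 in WT GV and 3.40 and 3.69 in WT MII libraries, and 167 and 146, 60.4 and 97.1, and 65.7 and 52.1 in the null libraries. The null MII libraries lay far above the WT MII libraries, and the log2 difference was 3.71 ± 0.22 (SE, limma adjusted p = 1.90e-07). Cth, a cysteine-making enzyme, measured 13.9 and 7.94 against 27.7 and 17.1 in MII oocytes (0.98 ± 0.30, adjusted p = 0.0267), and Shmt2, the mitochondrial serine hydroxymethyltransferase, 4.69 and 5.38 against 10.1 and 10.2 (0.88 ± 0.16, adjusted p = 0.00117). In the other direction Slc7a11 measured 10.7 and 13.1 FPKM in WT MII and 7.52 and 8.68 in null MII libraries. Asns, Chac1 and Trib3 of the same list were under 1 FPKM in every MII library of both genotypes. Of the 4 tested genes whose promoter held TGATGNAA, Gars was called higher in null MII oocytes, and Aars, Iars and Tars were not, with log2 differences of 0.08, 0.17 and 0.26. The promoter of Wars, also called higher there, was not searched, and a link between the letters and these differences was not tested.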

How the data were processed

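The deposited table held FPKM, which the authors made from Smart-seq2 reads with TopHat2 2.1.1, mm9 and Cufflinks 2.2.1 (per the labels and the study's methods), counting unique reads and multiplying each library by its ERCC factor. The factors were recovered from the trailing digits of the values. The table holds no counts, so depth is unknown and no count test was used; 1 FPKM equals 1 to 4.45 FPKM before scaling. The 11502 genes that reached 1 FPKM in any library were fitted on log2(FPKM + 1) with limma 3.58.1 (R 4.3.3), 1 coefficient for each of 6 groups and a mean-variance trend, with Benjamini-Hochberg adjustment over those genes and calls under 0.05. The fit was tested on simulated data. Fold changes on this scale understate low genes. Values in every library were given for the 3 highest and 3 lowest members of each class and the 3 most changed called members in each direction of each comparison. The members, gene lists and tests were chosen with earlier results of these data known, and the 5 ratios, the grouping of the 8 complex genes, the sequence searches (blastn 2.17.0, at least 100 bases and 90% identity) and the shares without Lars2 or Fars2 after the values were seen. One gene of the list of charging partners is not reported here. Alternatives were other scalings, pseudocount, filters, a replicate term, each stage alone and each library left out.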

Additional observations from a re-analysis of the deposited data

Results flagged for a closer look

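The following 13 results were singled out because a test of the difference between genotypes in a change between stages passed by limma (adjusted p under 0.05), each given as null minus WT on the log2 scale. For the change from growing to GV these were Iars2 (−0.97) and Cars2 (−0.74). For the change from GV to MII these were Wars (1.49), Fars2 (1.12), Farsb (1.09), Qars (1.00), Iars (0.99), Gars (0.99), Cars2 (0.80), Rars (0.75), Lars (0.71), Eprs (0.63) and Wars2 (0.56). Cars2 at maturation was the only one that also passed without the ERCC factor (adjusted p = 0.0153) and with equal medians (adjusted p = 0.0126). Gars, Iars, Wars, Cars2 and Fars2 at maturation and Iars2 during growth stayed called whichever library was left out. Iars2 after growth and Cars2 at MII were under 1 FPKM in every library. Because Iars2 was tested only through growing libraries, where it was high, its difference carries no support.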

How the results depend on the processing

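Among the 128 calls of single members, 1378 of 1536 fits that left out 1 library kept the call and the direction, none reversed, and 158 lost the call. In most of those fits the library left out was not in the groups compared. The estimate could not change there, and only the spread and the adjustment could, so these totals overstate how stable the calls were. The scaling moved most counts. Without the ERCC factor the higher and lower members numbered 7 and 1 in growing, 2 and 2 in GV and 7 lower in MII oocytes between genotypes, 0 lower from growing to GV in WT, 1 and 8 in null, 3 and 19 from GV to MII in WT, 2 higher in null, 0 lower for the growing-to-GV difference and 1 and 2 for the GV-to-MII difference. With equal medians these were 7 and 1, 2 and 0, 8 and 7, 0, 2 and 8, 7 and 17, 6 and 17, 0, and 1 and 3. With a pseudocount of 0.1 FPKM the counts were 1 higher in growing, 10 higher in MII, 10 lower from growing to GV in WT and 0 for the growing-to-GV difference. With a mean of at least 5 FPKM, which leaves fewer members, they were 0 higher in growing, 9 and 14 lower from growing to GV in WT and null, 18 and 16 lower from GV to MII, and 0 for the growing-to-GV difference. Without a filter they were 1 higher in growing, 1 lower in MII, 10 lower from growing to GV in WT and 7 higher for the GV-to-MII difference. By a 3-fold rule no member differed between genotypes at any stage (0), 0 and 1 fell from growing to GV, and 16 and 12 fell from GV to MII, where a 10-fold rule left 3 and 3. The cause of the other shifts was not tested.

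Leaving out 1 library at a time gave 1 to 3 higher and 0 to 5 lower members in growing, 4 to 12 lower in GV, 1 to 5 higher and 0 to 1 lower in MII oocytes, 4 to 18 lower from growing to GV in WT, 1 to 2 for the growing-to-GV difference and 5 to 12 for the GV-to-MII difference. A lone library of a group is then assumed to vary like the others.

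Signs reversed without the ERCC factor for Kars (0.0886) and Rars (0.0117) from growing to GV in null, for Eprs (0.37), Farsb (0.23), Hars (0.85), Lars (0.25), Tars (0.61) and Fars2 (0.26) from GV to MII in WT, and for Eprs (0.38), Hars (0.0165), Lars (0.35), Tars (0.17) and Wars (0.25) in null. With equal medians they reversed for Farsa (0.0281), Kars (0.16) and Rars (0.0800) from growing to GV in null, for Eprs (0.72), Farsb (0.58), Hars (1.19), Kars (0.22), Lars (0.58), Tars (0.95) and Fars2 (0.62) from GV to MII in WT, for Eprs (0.65), Hars (0.28), Kars (0.0906), Lars (0.61), Tars (0.44) and Wars (0.53) in null, and for the GV-to-MII difference of Eprs (−0.0688) and Rars (−0.0412).

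The mitochondrial share of WT growing, GV and MII oocytes, 33.7%, 40.5% and 72.5%, was 14.7%, 15.4% and 18.2% without the highest member of each class (Qars and Lars2) 12.02%, 13.2% and 17.8% without Lars2, and 6.52%, 6.42% and 2.27% without Lars2 and Fars2, the last 2 alternatives added after the data were seen. In null oocytes 28.8%, 36.5% and 61.1% became 15.5%, 15.4% and 21.9%, then 10.9%, 11.9% and 20.9%, and then 7.22%, 5.85% and 2.59%. The mitochondrial minus cytoplasmic median of log2(FPKM + 1) was −2.93, −2.89 and −2.01 in WT and −2.47, −2.93 and −1.86 in null oocytes, but this narrowing at MII depends on the added 1, since the mitochondrial median FPKM was 9.44% of the cytoplasmic one in WT GV and 3.28% in WT MII oocytes.

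Replicate numbers were not taken to pair the samples, since the correlations of same-numbered deviations ran from −0.12 to 0.16. Both WT growing libraries carry a factor of 1, however, and the study's spike-in percentages match factors set within a replicate number, so the scaling itself follows the numbers. A replicate block left all 128 single calls in place, and moved no count by over 1.5 times (9 in place of 6 lower in GV oocytes). The table gives no depth, so values under 1 FPKM, 5 members throughout, bound no change.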
